A study of Drosophila melanogaster with 17 samples.

Results

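The RNA levels of 9 transcription factor genes that act in enteroblasts and enterocytes of the adult Drosophila midgut were described: klu, Sox21a, Sox100B, GATAe, cad, Hnf4, nub, pdm2 and zfh2. They were chosen by name as regulators of these cells, with earlier results of these data known, and were found by symbol and FlyBase identifier among the 17807 genes counted, where all 9 were present. The libraries were made from GFP-positive cells sorted from midguts of flies that carried esg-Gal4, UAS-GFP and tub-Gal80[ts], controls included. The esg driver is active in intestinal stem cells and enteroblasts, and the heat-sensitive Gal80 held it silent at 18 °C until the flies were moved to 29 °C for 2 days. These flies had been crossed to a control strain, which the labels do not name further, or to UAS lines. Batch 1 held 3 control libraries, 2 with UAS-da (daughterless, in its monomeric form) and 3 with da-specific RNAi under UAS. Batch 2 had its own 3 controls, 3 libraries with UAS-da:da, which encodes a forced homodimer of Da, and 3 with UAS-scute. Each library came from its own pool of about 100 guts and of 20000 to 40000 sorted cells, so p-values measure the spread between pools.

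The adult midgut is renewed by stem cells whose daughters become enteroblasts, the precursors of absorptive enterocytes, or enteroendocrine cells, which secrete peptide hormones. Daughterless is the fly E protein, a basic helix-loop-helix factor that binds DNA as a homodimer or together with proneural partners such as Scute. Of the 9 genes, klu, Sox21a and Sox100B are known from progenitors and enteroblasts, GATAe and cad from the identity of the gut as a tissue and of its regions, and Hnf4, nub and its neighbour pdm2 from enterocytes.

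Library totals were 33889877 to 40868714 counts in batch 1 and 47136298 to 66679229 in batch 2, where both mates of a read pair were counted. The targeted genes followed the labels. The da transcript had a mean of 112 CPM (counts scaled to library size, with sizes adjusted by TMM, the trimmed mean of M values) in the batch 1 controls, 871 CPM with UAS-da and 27.9 CPM with da RNAi, and it rose from 77.5 CPM in the batch 2 controls to 218 CPM with da:da. The sc transcript rose from 1.77 CPM to 2062 CPM with UAS-scute. RNA of esg itself, which marks the sorted progenitors, was lower than in controls after da knock-down (log2 change -0.53 ± 0.15 SE, adjusted p = 0.0342) and with scute (-0.44 ± 0.14, adjusted p = 0.025), and higher with da:da (0.51 ± 0.14, adjusted p = 0.038). Scute replicate 3 stood furthest from its group: its counts differed from those of the other scute libraries with a chi-square per gene of 160.2 and 115, against 19.3 between those libraries. Without it the scute calls of the 9 genes were still made, at log2 changes of -1.02 for klu, -0.72 for Sox21a, -1.85 for Sox100B and 1.4 for cad, and Hnf4 was called in addition. In pooled cells, fewer cells of a type and less RNA per cell cannot be told apart.

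In control cells, Sox100B, which encodes a SoxE-type HMG-box protein, had the highest level per exon length of the 9 genes, and nub and pdm2, which encode POU-homeodomain proteins, had the lowest. In batch 1 its mean was 97 RPKM (CPM divided by exon length in kilobases), followed by Sox21a at 50.7 RPKM, GATAe at 42.8 RPKM and klu at 19.9 RPKM. The ranges of Sox21a and GATAe over the 3 libraries overlapped. Lower in the order came cad at 7.96 RPKM, Hnf4 at 6.57 RPKM and zfh2 at 5.46 RPKM, whose neighbouring ranges also overlapped. The nub mean was 0.377 RPKM and the pdm2 mean 0.0826 RPKM, with no overlap between these genes or with zfh2. In batch 2 Sox100B was again first at 196 RPKM. Next came klu at 59.2 RPKM, GATAe at 49.97 RPKM and Sox21a at 41 RPKM. GATAe overlapped both of the others, while every klu library lay above every Sox21a library. The remaining order was as in batch 1, from cad at 12.8 RPKM and Hnf4 at 11.3 RPKM over zfh2 at 7.02 RPKM to nub at 0.736 RPKM and pdm2 at 0.224 RPKM, with overlap between cad and Hnf4 only. The exon length of zfh2 includes 18.7% shared with another gene, where reads that overlap both were not counted. Its RPKM is therefore set low, and its separation from Hnf4 in batch 2 is not established. Levels of the same gene differed between the control sets (klu had 18.3 to 22.4 RPKM in batch 1 and 51.9 to 65.7 RPKM in batch 2), and batch, read layout and read length cannot be told apart in that difference. Genotypes were therefore compared within a batch.

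**Figure D1:**
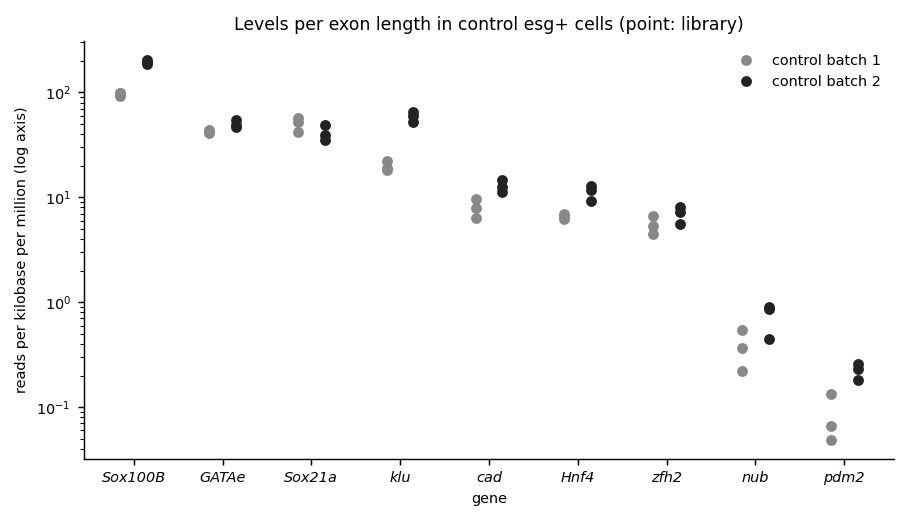
Levels of the 9 genes in control esg+ cells, in RPKM on a log axis, one point per control library and one colour per batch. Sox100B lies highest in both batches, near 97 and 196 RPKM, and nub and pdm2 lie below 1 RPKM.

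All 9 genes passed the filter on low counts in the fits reported here, and pdm2 did not pass the stricter filter tried for batch 1. Overexpressed da was followed by a change in 1 gene: Sox21a was higher, against a background of 13.5% of all 9540 tested genes called higher and 9.36% called lower. None of the 9 was called lower in edgeR, with 0 at an unadjusted p below 0.05 and 0 in DESeq2. After da knock-down 2 genes were higher, Sox100B and nub, and 2 were lower, klu and zfh2, where 11.2% of all tested genes were called higher and 9.16% lower. With da:da, Sox21a was the 1 gene called higher and none was called lower (edgeR: 1 lower at an unadjusted p below 0.05; DESeq2: 0 lower), where 5.39% of 14190 tested genes were called higher and 6.52% lower. With scute, cad was higher, and klu, Sox21a and Sox100B were lower, where 22.8% of tested genes were called higher and 22.2% lower. The median log2 change of the 9 genes was 0.02, 0.03, 0.18 and -0.01 in these comparisons, in the order given, and that of all tested genes -0.02, -0.01, -0.01 and 0.05. Both comparisons of a batch use the same controls.

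Sox21a was called in 3 of the 4 comparisons with controls, klu and Sox100B in 2 each, cad, nub and zfh2 in 1 each, and GATAe, Hnf4 and pdm2 in 0 of 4. For the last 3 genes, DESeq2 also made no call against controls, and Hnf4 with da:da was the 1 edgeR test against controls with an unadjusted p below 0.05.

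The scaling of the libraries bears on these counts. When libraries were scaled by total counts alone, the median log2 change of all tested genes moved to -0.37 for da knock-down and 0.49 for scute, and to -0.10 for da and 0.10 for da:da. Calls then split into 484 higher and 2682 lower genes for knock-down, against 1073 and 874 with TMM scaling. For scute they split into 5797 higher and 1648 lower, against 3235 and 3154. For da:da they were 1061 and 606, against 765 and 925, and for da 1041 and 968, against 1292 and 893. Changes given here with TMM scaling are thus relative to the bulk of tested genes.

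**Figure D2:**
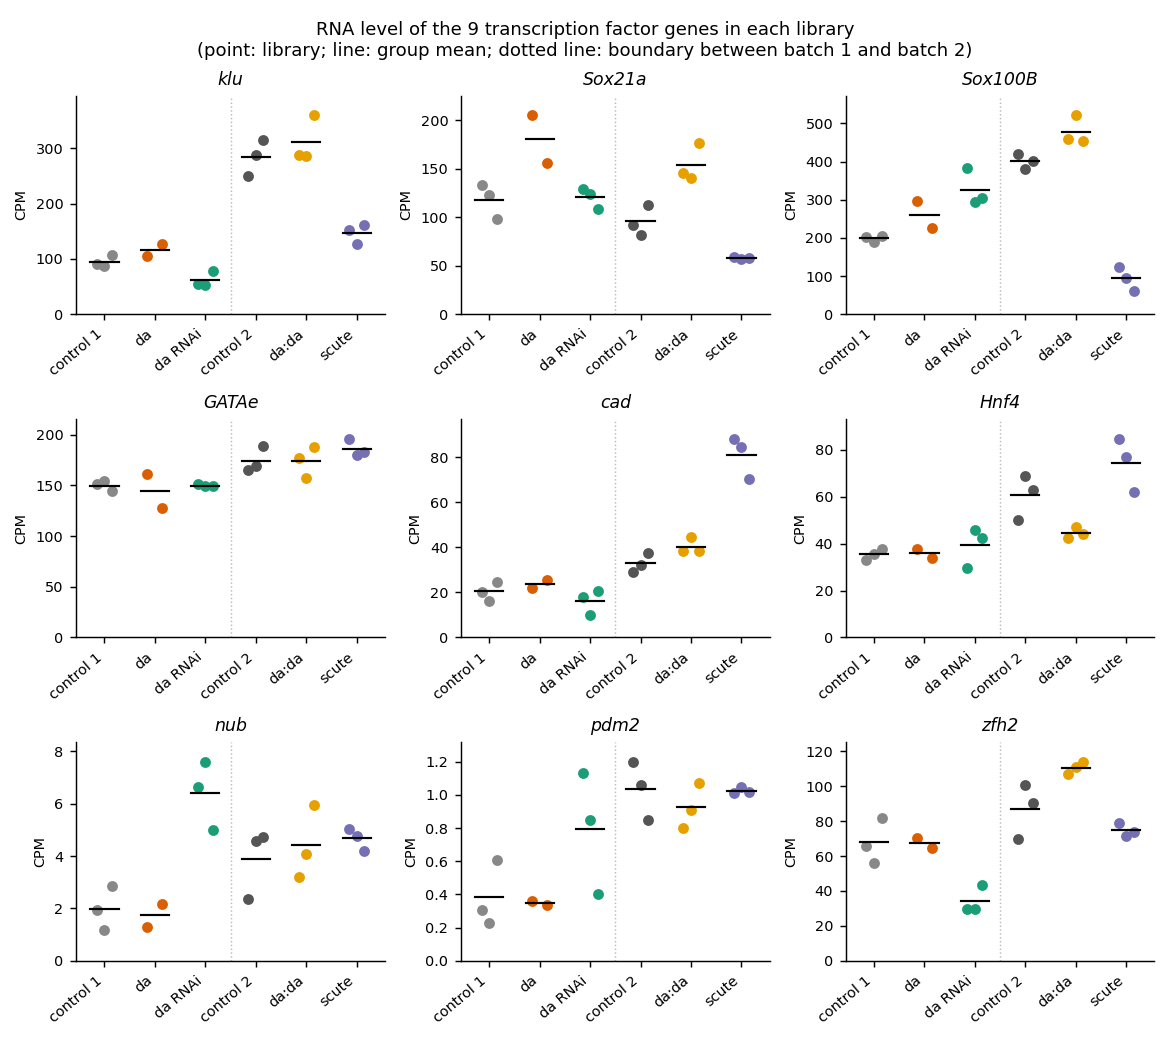
RNA levels of each gene in CPM (vertical axes from 0) in every library, one panel per gene, with points for libraries, short lines for group means and a dotted line between the batches. The 3 scute libraries lie below all other batch 2 libraries for klu, Sox21a and Sox100B and above them for cad, and the 3 da knock-down libraries lie above all other batch 1 libraries for nub and below them for klu and zfh2.

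Among the enteroblast genes, klu, or klumpfuss, encodes a zinc finger protein that restrains proneural genes in enteroblasts. It lies on chromosome 3L from 10981171 to 11009188 on the minus strand (BDGP6.28). Its level fell after da knock-down and fell with scute. The 3 batch 1 controls had 90.9, 87.8 and 107 CPM, the UAS-da libraries 105 and 127 CPM, and the knock-down libraries 54.9, 52.7 and 78.4 CPM. Every knock-down library lay below every control, and the UAS-da libraries overlapped the controls. The knock-down change was 1.54-fold lower (log2 -0.62 ± 0.17 SE, edgeR adjusted p = 0.0318). It is a call near the threshold. Its adjusted p was 0.0685 to 0.103 when any 1 of the 3 controls, or knock-down replicate 1 or 2, was left out. The log2 change was -0.83 to -0.52 over all 8 fits that left out a library, those that kept the call included. With UAS-da the change was 0.28 ± 0.19 (95% interval -0.14 to 0.71, adjusted p = 0.317). Between UAS-da and da knock-down klu differed by 0.91 ± 0.19 (adjusted p = 0.00574; 0.0541 without UAS-da replicate 2), 1.87-fold higher with UAS-da.

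In batch 2 the klu controls had 249, 288 and 315 CPM, the da:da libraries 288, 285 and 359 CPM, and the scute libraries 152, 127 and 162 CPM. Every scute library lay below every control, and da:da overlapped the controls. With scute klu was 1.93-fold lower (log2 -0.95 ± 0.13, adjusted p = 9.65e-05), and this call was made in all 9 fits that left out a library. With da:da the change was 0.13 ± 0.13 (95% interval -0.16 to 0.42, adjusted p = 0.641).

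Sox21a encodes a SoxB-type HMG-box protein needed in enteroblasts for differentiation, and lies on chromosome 3L from 14103481 to 14108118 on the minus strand. It rose with both forms of extra Da and fell with scute. With da:da its level was 146, 140.1 and 177 CPM against 92.3, 81.9 and 113 CPM in controls, with no overlap. That is a 1.61-fold rise (log2 0.69 ± 0.13, adjusted p = 0.00385), called in all 9 fits that left out a library. The scute libraries had 58.6, 57.2 and 57.6 CPM, all below the lowest control and close to each other. This fall was 1.66-fold (log2 -0.73 ± 0.13, adjusted p = 0.00054). Under scaling by total counts it was -0.29 (adjusted p = 0.105), where the median of all genes was 0.49.

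In batch 1 the UAS-da libraries had 205 and 156 CPM of Sox21a, the controls 133, 123 and 98.5 CPM and the knock-down libraries 129, 124 and 109 CPM. Both UAS-da libraries lay above all controls, while knock-down and control overlapped. The rise with UAS-da was 1.52-fold (log2 0.61 ± 0.17, adjusted p = 0.0292). This call rests on few libraries: it gave an adjusted p of 0.0764 without control replicate 2, 0.0666 without control replicate 3 and 0.18 without UAS-da replicate 1, where the log2 change was 0.41. It was also lost with total count scaling (0.50, adjusted p = 0.0624) and when the knock-down libraries were left out of the fit (0.60, adjusted p = 0.0514). The knock-down change was 0.03 ± 0.15 (95% interval -0.32 to 0.37, adjusted p = 0.927). Sox21a was 0.58 ± 0.17 higher (log2) with UAS-da than with knock-down (adjusted p = 0.0284), a call lost without UAS-da replicate 1 (adjusted p = 0.183), knock-down replicate 2 (0.0545) or knock-down replicate 3 (0.073).

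Sox100B, whose product is reported to act in midgut progenitors, lies on chromosome 3R from 31065253 to 31083407 on the plus strand. It showed the widest range of the 9 genes in batch 2, falling 4.25-fold with scute. The controls had 419, 381 and 402 CPM, the da:da libraries 459, 520.5 and 454 CPM and the scute libraries 125, 95.7 and 62 CPM. All 3 scute libraries lay far below all others, and they also spread from one another. The fall with scute was -2.09 ± 0.20 on the log2 scale (adjusted p = 4.49e-06) and between -2.34 and -1.85 when any one library was left out. The da:da libraries all lay above the controls, but the difference of 0.25 ± 0.19 was not called (95% interval -0.17 to 0.68, adjusted p = 0.509).

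In batch 1 Sox100B was at 203, 189 and 204 CPM in controls, 296 and 225 CPM with UAS-da, and 383, 293 and 304 CPM after da knock-down. Knock-down raised it 1.64-fold (log2 0.72 ± 0.15, adjusted p = 0.00889), with no overlap with controls. Without control replicate 2 the adjusted p was 0.0513. With total count scaling the change was 0.36 (adjusted p = 0.0707), where the median of all genes was -0.37. The UAS-da libraries also lay above the controls, by 0.39 ± 0.16, which was not called (95% interval 0.03 to 0.76, adjusted p = 0.116), and they differed from knock-down by -0.32 ± 0.17 (adjusted p = 0.173).

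The gene zfh2 encodes a large protein with zinc fingers and homeodomains. It lies on chromosome 4 from 501810 to 540874 on the plus strand, and 18.7% of its exon bases (2325) are shared with Thd1, where reads that overlap both genes were not counted. It fell after da knock-down. The controls had 65.6, 56 and 81.7 CPM, and the knock-down libraries 29.4, 29.6 and 43.1 CPM. UAS-da gave 70.4 and 64.6 CPM, within the control range. The knock-down libraries lay below all others of the batch, 1.99-fold under control (log2 -0.99 ± 0.19, adjusted p = 0.00568), and the call was made in all 8 fits that left out a library and with total count scaling (-1.34, adjusted p = 0.000607). The UAS-da change was -0.01 ± 0.20 (95% interval -0.46 to 0.45, adjusted p = 0.989), and UAS-da exceeded knock-down by 0.99 ± 0.20 (adjusted p = 0.00529).

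In batch 2 the zfh2 controls had 69.9, 101 and 90.5 CPM, the da:da libraries 107, 111 and 114 CPM and the scute libraries 78.7, 71.4 and 73.9 CPM. The da:da libraries lay above all controls, and scute overlapped them. Neither change was called: 0.35 ± 0.12 for da:da (95% interval 0.08 to 0.62, adjusted p = 0.0996) and -0.22 ± 0.12 for scute (-0.49 to 0.05, adjusted p = 0.171). Both depended on 1 control. Without control replicate 2 the da:da rise was 0.47 (adjusted p = 0.0444), and without control replicate 1 the scute fall was -0.36 (adjusted p = 0.0123). With total count scaling the da:da rise was 0.47 (adjusted p = 0.0216) and the scute change 0.22 (adjusted p = 0.125).

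GATAe, an endodermal GATA factor that maintains midgut identity, lies on chromosome 3R from 16009105 to 16019133 on the plus strand. Its log2 changes against control, -0.05 to 0.09, spanned the narrowest range of the 9 genes. Its 8 batch 1 libraries had 151, 154 and 144 CPM (control), 161 and 128 CPM (UAS-da) and 151, 149 and 149 CPM (knock-down). The 9 batch 2 libraries had 165, 169 and 189 CPM (control), 177, 157 and 188 CPM (da:da) and 196, 179.6 and 183 CPM (scute). All groups overlapped the controls of their batch. The log2 changes were -0.05 ± 0.13 with UAS-da (95% interval -0.34 to 0.24, adjusted p = 0.818), 0.00 ± 0.12 after knock-down (-0.26 to 0.26, adjusted p = 0.997), -0.01 ± 0.10 with da:da (-0.22 to 0.21, adjusted p = 0.985) and 0.09 ± 0.10 with scute (-0.12 to 0.31, adjusted p = 0.493). This holds relative to the bulk of genes. With total count scaling GATAe moved with the median of all genes, to -0.36 after knock-down (adjusted p = 0.0431) and 0.54 with scute (adjusted p = 0.000964).

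The caudal gene cad encodes a homeodomain protein known for the identity of the hindgut and posterior midgut and for holding back antimicrobial peptide genes there. It lies on chromosome 2L from 20770731 to 20783135 on the plus strand. It rose 2.47-fold with scute. The scute libraries had 88.3, 84.8 and 70.5 CPM, the controls 29, 32.3 and 37.4 CPM and the da:da libraries 38.6, 44.4 and 38.2 CPM. All scute libraries lay above all others (log2 1.30 ± 0.12, adjusted p = 4.2e-06, and 1.22 to 1.41 without any one library). The da:da libraries lay just above the controls, with a difference of 0.30 ± 0.12 that was not called (95% interval 0.03 to 0.56, adjusted p = 0.168) and that with total count scaling was 0.41 (adjusted p = 0.0326).

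In batch 1 cad was at 20.2, 16.3 and 24.8 CPM in controls, 21.9 and 25.6 CPM with UAS-da and 18, 9.83 and 20.7 CPM after knock-down. Both treated groups overlapped the controls, and the UAS-da libraries lay above all knock-down libraries. The changes were 0.22 ± 0.28 with UAS-da (95% interval -0.42 to 0.85, adjusted p = 0.626) and -0.34 ± 0.26 after knock-down (-0.91 to 0.23, adjusted p = 0.399). UAS-da exceeded knock-down by 0.56 ± 0.28 (adjusted p = 0.171), which was 0.80 (adjusted p = 0.0325) with the replicate number as a block and 0.83 (adjusted p = 0.0483) with total count scaling.

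The nuclear receptor gene Hnf4, a regulator of fat breakdown and mitochondrial function, lies on chromosome 2L from 8687226 to 8709611 on the minus strand. Of its exon bases 3.35% are shared with asRNA:CR44992, an antisense gene that counting without strand cannot separate. No comparison with a control was called, though scute and da:da differed from one another. The batch 2 controls had 49.9, 69 and 62.9 CPM, the da:da libraries 42.3, 47 and 44.1 CPM and the scute libraries 84.7, 77 and 61.9 CPM. The da:da libraries lay below every other library of the batch, and scute overlapped the controls. The da:da difference from control was -0.45 ± 0.14 (95% interval -0.75 to -0.14, adjusted p = 0.0605), and it passed the threshold without control replicate 1 (adjusted p = 0.023), without scute replicate 3 (0.0318) and with the scute libraries out of the fit (-0.43, adjusted p = 0.048). The scute difference was 0.30 ± 0.14 (-0.01 to 0.60, adjusted p = 0.105), 0.42 without scute replicate 3 (adjusted p = 0.0252) and 0.74 with total count scaling (adjusted p = 0.000441). Scute exceeded da:da 1.68-fold (log2 0.74 ± 0.14, adjusted p = 0.000933).

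In batch 1 Hnf4 was at 33.2, 35.4 and 37.5 CPM in controls, 37.9 and 33.9 CPM with UAS-da and 29.4, 45.9 and 42.4 CPM after knock-down. Knock-down libraries lay on both sides of the controls. The changes were 0.02 ± 0.18 with UAS-da (95% interval -0.38 to 0.42, adjusted p = 0.945) and 0.15 ± 0.16 after knock-down (-0.21 to 0.51, adjusted p = 0.565).

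The POU-domain genes nub (Pdm1, a standard marker of enterocytes) and pdm2 are neighbours on chromosome 2L, at 12587625 to 12628135 and 12657165 to 12686306 on the plus strand, with 29029 bases between them. Both were near the bottom of what these libraries measured: in single libraries pdm2 had 10 to 40 raw counts (batch 1) or 40 to 83 (batch 2), and nub 43 to 260 or 128 to 377. After da knock-down nub rose 3.23-fold, the greatest fold change against control among the 9 genes in batch 1. The controls had 1.94, 1.16 and 2.87 CPM, the UAS-da libraries 1.3 and 2.18 CPM and the knock-down libraries 6.63, 7.6 and 5.01 CPM. Every knock-down library lay above all others (log2 1.69 ± 0.34, adjusted p = 0.00839; 1.41 to 2.05 without any one library). The UAS-da change was -0.18 ± 0.39 (95% interval -1.06 to 0.69, adjusted p = 0.777), and UAS-da differed from knock-down by -1.87 ± 0.40 on the log2 scale (adjusted p = 0.00658).

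For pdm2 the batch 1 controls had 0.308, 0.227 and 0.61 CPM, the UAS-da libraries 0.362 and 0.337 CPM and the knock-down libraries 1.13, 0.848 and 0.401 CPM. Knock-down replicates 1 and 2 lay above all controls and replicate 3 among them. The difference of 1.06 ± 0.50 was not called (95% interval -0.06 to 2.19, adjusted p = 0.17), a wide interval at this depth. The UAS-da difference was -0.12 ± 0.58 (-1.42 to 1.18, adjusted p = 0.91).

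In batch 2 nub was at 2.36, 4.56 and 4.73 CPM in controls, 3.21, 4.06 and 5.96 CPM with da:da and 5.04, 4.77 and 4.21 CPM with scute. For pdm2 the values were 1.2, 1.06 and 0.846 CPM, then 0.798, 0.912 and 1.07 CPM, then 1.01, 1.05 and 1.02 CPM. The groups overlapped for both genes. The nub changes were 0.18 ± 0.28 with da:da (95% interval -0.43 to 0.80, adjusted p = 0.786) and 0.27 ± 0.28 with scute (-0.34 to 0.88, adjusted p = 0.49). The pdm2 changes were -0.16 ± 0.24 (-0.67 to 0.36, adjusted p = 0.781) and -0.01 ± 0.23 (-0.51 to 0.50, adjusted p = 0.983).

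**Figure D3:**
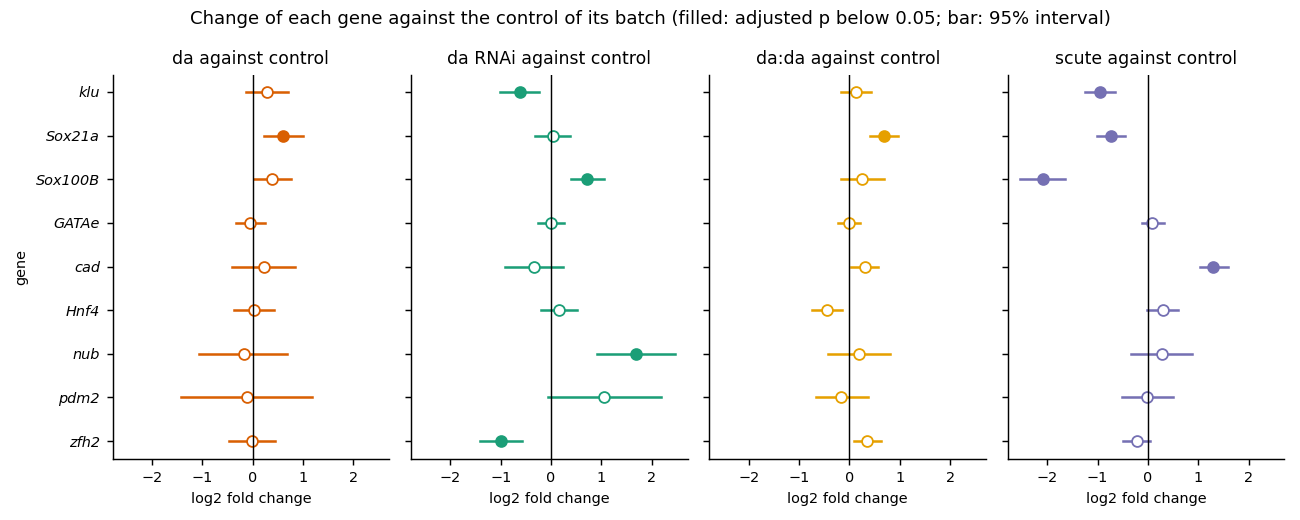
Log2 fold change of each gene against the control of its batch, one panel per genotype, with bars for 95% intervals and filled points where the adjusted p was below 0.05. Sox21a lies right of 0 with UAS-da (0.61) and da:da (0.69) and left of 0 with scute (-0.73), nub (1.69) and pdm2 (1.06) have the widest intervals after knock-down, and GATAe lies between -0.05 and 0.09 in every panel.

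Set directly against each other, UAS-da and da knock-down differed in 4 of the 9 genes, 3 higher with UAS-da (klu, Sox21a, zfh2) and 1 lower (nub), where 16% of all tested genes were called higher and 14.1% lower. Scute and da:da differed in 6, with 2 higher with scute (cad, Hnf4) and 4 lower (klu, Sox21a, Sox100B, zfh2), where 21.4% and 21.2% of tested genes were called. Sox21a was 2.67-fold lower with scute than with da:da (log2 -1.42 ± 0.13, adjusted p = 3.38e-06) and Sox100B 5.07-fold lower (-2.34 ± 0.20, adjusted p = 2.13e-06). The klu difference was -1.08 ± 0.13 (adjusted p = 3.97e-05) and the cad difference 1.01 ± 0.12 (adjusted p = 3.64e-05). For zfh2 it was -0.57 ± 0.12 (adjusted p = 0.00242), which with total count scaling was -0.25 (adjusted p = 0.105).

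Changes were also compared across batches, each taken against its own control, in a fit of all 17 libraries with 14083 genes. The changes with da:da and with UAS-da differed in none of the 9 genes (edgeR: 0 at an unadjusted p below 0.05; DESeq2: 0), where 2.5% of all tested genes were called higher and 4.49% lower. The da transcript itself rose less with da:da than with UAS-da (difference -1.39 ± 0.22, edgeR adjusted p = 0.000554). For Sox21a the da:da change minus the UAS-da change was 0.15 ± 0.22 (95% interval -0.31 to 0.61, adjusted p = 0.769). For nub it was 0.43 ± 0.51 (-0.65 to 1.5, adjusted p = 0.705) and for zfh2 0.43 ± 0.23 (-0.06 to 0.91, adjusted p = 0.332). The changes with scute and with UAS-da differed in 4 genes, against a background of 12.6% higher and 15.9% lower: Sox100B (-2.43 ± 0.27, adjusted p = 2.85e-06), Sox21a (-1.29 ± 0.22, adjusted p = 0.000193) and klu (-1.19 ± 0.23, adjusted p = 0.00057) were lower and cad was higher (1.13 ± 0.30, adjusted p = 0.00849).

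A further pair of differences was added after the data had been seen. The da:da change minus the knock-down change was called for 4 genes, against 8.8% of tested genes called higher and 9.12% lower. It was positive for zfh2 (1.36 ± 0.22, adjusted p = 0.000238), klu (0.77 ± 0.21, adjusted p = 0.0172) and Sox21a (0.68 ± 0.21, adjusted p = 0.0286) and negative for nub (-1.50 ± 0.47, adjusted p = 0.0341). The calls of Sox21a and nub were lost in 6 and 8 of the 17 fits that left out a library (adjusted p up to 0.0859 and 0.0905), and the number of genes called ranged from 2 to 5, with 2 without batch 1 control replicate 1 or 2 or batch 2 control replicate 2. The scute change minus the knock-down change was called for 5 genes, against 16.8% higher and 18.9% lower: Sox100B (-2.81 ± 0.26, adjusted p = 2.01e-07), nub (-1.44 ± 0.47, adjusted p = 0.0223) and Sox21a (-0.77 ± 0.21, adjusted p = 0.00666) were lower, and cad (1.64 ± 0.28, adjusted p = 0.000157) and zfh2 (0.76 ± 0.22, adjusted p = 0.0102) higher. The nub call was lost without batch 1 control replicate 2 (adjusted p = 0.0545) or batch 2 control replicate 2 (0.0558) or 3 (0.0587). For klu, which fell in both genotypes, the difference between the falls was -0.33 ± 0.21 (95% interval -0.78 to 0.12, adjusted p = 0.264).

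**Figure D4:**
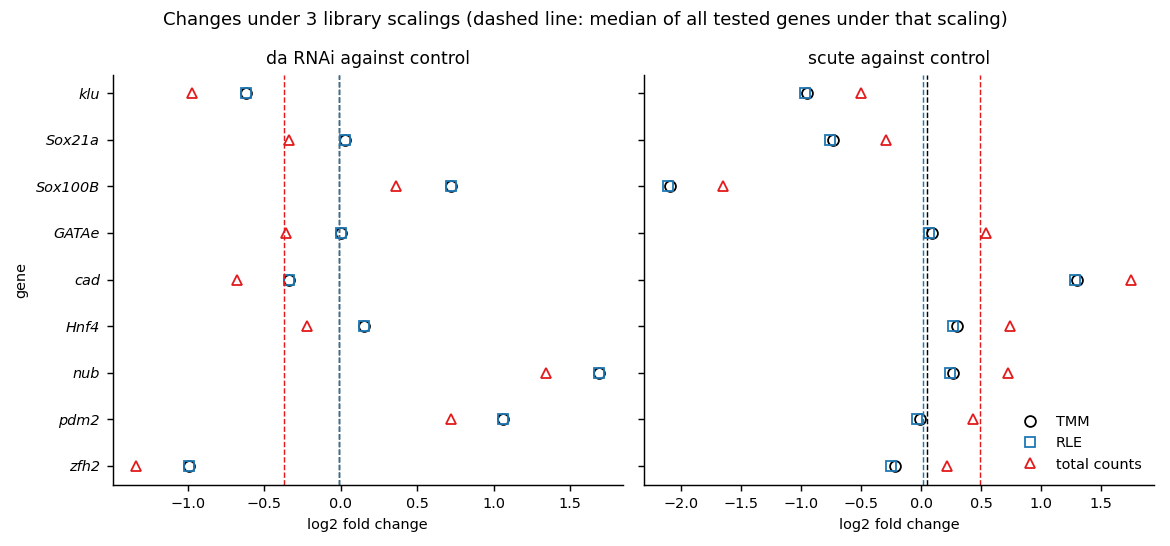
Log2 fold change of each gene against control under 3 ways of scaling the libraries, with a dashed line at the median of all tested genes under each. With total counts alone the median lies at -0.37 for knock-down and 0.49 for scute, and GATAe moves with it (-0.36 and 0.54), while nub (1.34) and zfh2 (-1.34) after knock-down, Sox100B with scute (-1.65) and cad with scute (1.75) keep their side of 0.

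Genes named for the cells in which the 9 factors act were counted beside them. Counts of every gene list below stand against the shares of all tested genes called higher and lower. These were 13.5% and 9.36% with UAS-da and 11.2% and 9.16% after knock-down. They were 5.39% and 6.52% with da:da and 22.8% and 22.2% with scute. Of 23 Notch pathway and progenitor genes, 12 were higher and 0 lower with UAS-da (edgeR: 0 lower at an unadjusted p below 0.05; DESeq2: 0), and 11 were higher and 1 lower with da:da. After knock-down 0 were higher (5 at an unadjusted p below 0.05; DESeq2: 3) and 11 lower, and with scute 14 were higher and 7 lower. E(spl)m8-HLH, a Notch target that encodes a repressor, went from 3.98 ± 1.1 CPM (SD, n = 3) to 0.0223 ± 0.0386 after knock-down and from 2.69 ± 0.747 to 339 ± 15.1 CPM with scute.

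Of 10 structural genes of enterocytes tested, 6 were higher and 0 lower after knock-down (0 lower at an unadjusted p below 0.05; DESeq2: 0), with a median log2 change of 1.22. With UAS-da 3 were higher and 1 lower (median 0.73), with da:da 2 and 1 (0.05), and with scute 4 and 1 (0.63). Their summed level was 1356 to 1514 CPM in batch 1 controls and 2721 to 3051 CPM after knock-down, where nub was higher. It was 1145 to 1205 CPM in batch 2 controls and 2014 to 2577 CPM with scute, where nub was not called. The septate junction genes mesh and Tsp2A had log2 changes of 2.05 ± 0.33 and 1.69 ± 0.20 after knock-down and of 4.27 ± 0.51 and 4.56 ± 0.32 with scute. Tsp2A was also higher with UAS-da (2.11 ± 0.22) and with da:da (1.01 ± 0.29), so its rise was not particular to loss of da. Another structural gene, mex1, was higher after knock-down (2.11 ± 0.17) and lower with UAS-da (-1.79 ± 0.20) and da:da (-1.32 ± 0.24). Of 8 markers of differentiated enterocytes, 1 was higher after knock-down, mex1, which is also among the structural genes. None was lower (0 at an unadjusted p below 0.05 in edgeR and 0 in DESeq2). Their sum went from 459–662 CPM to 877–1288 CPM, and their median log2 change was 1.51. The mean of mex1 alone went from 106 CPM to 459.7 CPM, and it enters this sum and that of the structural genes. With UAS-da 1 of the 8 was lower, and with da:da and with scute 2 each. The sum was 374 to 433 CPM with UAS-da, and in batch 2 it was 1179 to 1975 CPM in controls, 663 to 1282 CPM with da:da and 688 to 946 CPM with scute. None of the 8 markers was at 0 in any group. The part of these cells in the values of nub, pdm2, Hnf4 and cad was not tested. Of the digestive enzyme genes tested, 22 in batch 1 and 26 in batch 2, 1 was lower with UAS-da, 2 were higher after knock-down, 2 were lower with da:da, and 3 were higher and 3 lower with scute.

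Enteroendocrine markers moved beside the fall of klu, Sox21a and Sox100B with scute. Leaving out sc itself, 13 of 15 tested were higher and 2 lower with scute, and their summed level was 4038 to 4446 CPM in controls and 4995 to 8194 CPM with scute. It was 4737 to 8195 CPM with da:da, a range that overlaps that of scute. Single markers differed between these genotypes all the same. The median log2 change of the 16 markers, sc included, was 3.91 with scute and -0.13 with da:da. CCHa1 had a mean of 11.7 CPM in controls, 897 CPM with scute and 2.11 CPM with da:da. In batch 1 the sums, also without sc, were 199 to 262 CPM in controls, 86.6 to 540.2 CPM with UAS-da and 115 to 249 CPM after knock-down, where Mip was at 0 in both treated groups and 8 and 9 of 14 tested were lower. With da:da 4 of 15 were lower. Neuron and glia markers also moved with scute: 4 of 5 were higher, the sum went from 55.5–66.3 to 268–362 CPM and none was at 0. After knock-down 1 of 4 tested was lower, and with da:da 1 of 5. Of 8 visceral muscle markers listed, 5 had enough counts to test in batch 1. With UAS-da 3 of these 5 were higher beside Sox21a, at sums of 2.96 to 3.3 CPM in controls and 8.65 to 10.2 CPM with UAS-da. Only sls among the called markers reached a mean of 1 CPM (1.61 ± 0.0592 CPM in controls, 5.68 ± 0.951 CPM with UAS-da). Whether the others passed the filter only through the UAS-da libraries was not tested. Of the visceral muscle markers 1 of 5 was higher after knock-down and 1 of 8 with scute. The part of each in the values of the 9 genes was not tested.

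Other transcription factor genes of the midgut and its regions had 9 of 17 higher and 2 lower with scute, where 22.8% and 22.2% of all tested genes were called, led by Ptx1 (45.2 ± 7.20 CPM in controls and 144 ± 13.4 CPM with scute, SD, n = 3; log2 1.68 ± 0.14 SE), mirr (1.67 ± 0.19) and hth (1.54 ± 0.17). With da:da 3 were higher, bab1 the most (1.02 ± 0.17), and 1 lower, and with UAS-da 2 of 13 were higher, Ptx1 (0.66 ± 0.17) and dve (0.54 ± 0.12). After knock-down 0 of 13 were called (edgeR: 1 higher and 3 lower at an unadjusted p below 0.05; DESeq2: 1 higher and 2 lower). Relatives of the 9 factors by DNA-binding domain were called higher in 10 of 24 and lower in 0 with UAS-da (0 lower at an unadjusted p below 0.05; DESeq2: 0), among them the nuclear receptor gene Hr96 (1.89 ± 0.14). The 10 include Sox15, at 2.97 ± 1.05 CPM with UAS-da (SD, n = 2), 0.0254 ± 0.044 CPM in controls and 0 after knock-down. Sox15 passed the filter on low counts only through the UAS-da libraries, so its call was tied to the filter. With da:da 3 of 27 were higher, including luna (1.52 ± 0.20) and Sox14 (1.14 ± 0.13), and 1 lower. With scute 10 of 27 were higher, including the GATA factor gene pnr (1.88 ± 0.20), and 5 lower, with cbt the greatest (-2.48 ± 0.19). After knock-down the nuclear receptor gene Eip78C was the 1 called higher (1.1 ± 0.27).

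Genes whose pattern was most like that of each factor were sought by Pearson's r over the 17 libraries, on log2 CPM minus the mean of the batch's controls, among 5772 genes, or 5773 for nub and pdm2. These r values describe libraries that share batches, controls and groups. Sox100B had the closest patterns (ex 0.986, CAP 0.984, eEF1alpha1 0.981), followed by cad (Cdc7 0.96, CG31122 0.952, Su(var)2-10 0.952), klu (su(Hw) 0.95, Tgi 0.941, CG12942 0.935) and Sox21a (Fit1 0.948, rhea 0.947, Vamp7 0.941). For Hnf4 the closest was bmm (0.94), ahead of CG4297 (0.871) and Vang (0.84). For zfh2 they were PRAS40 (0.912), ed (0.889) and CG7800 (0.889), and for nub bowl (0.868), CG43349 (0.867) and CG42748 (0.863). CG43349 was also among the 3 closest to pdm2 (0.778), after CG5096 (0.851) and CG13482 (0.787). GATAe had no gene above 0.682 (CG14641, then Incenp and chn at 0.66). Among the 9 genes themselves the highest r was between nub and pdm2 (0.754), then Sox21a and Sox100B (0.743) and klu and Sox21a (0.717), and the lowest between Sox100B and cad (-0.806).

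The authors' deposited table of log2 fold changes and adjusted p-values lists all 9 genes in each of its 4 comparisons with controls. Below 0.05 in that table were 1 gene with UAS-da, 5 after knock-down, 1 with da:da and 4 with scute, and 9, 8, 9 and 9 of the 9 genes lay on the same side of that threshold as in edgeR. The gene called in the authors' deposited table but not here was pdm2 after knock-down, at a log2 fold change of 1.11 and an adjusted p of 0.0388.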

How the data were processed

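Raw read counts per gene were deposited for the 17 libraries. The authors made them with featureCounts 2.0.2 on exons of BDGP6 release 28, annotation release 101, per the file headers, without a strand option; multi-mapping reads and reads overlapping several genes were left out. In batch 2 each mate of a pair added 1 count. Reads were single of 50 nt in batch 1 and paired of 150 nt in batch 2, and RNA was amplified before library preparation, per the labels. The aligner is not given in the sources used here. For 4 comparisons the authors deposited log2 fold changes, each with an adjusted p-value, used only where named. A deposited sheet of 17 count columns has no gene identifiers and was not used.

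The members and gene lists were chosen with earlier results of these data known. Counts were analysed in R 4.3.3 with edgeR 4.0.16 (limma 3.58.1): filterByExpr by group (minimum count 10), TMM scaling, 1 mean per group for all libraries of a batch, and the quasi-likelihood test, two-sided, with Benjamini-Hochberg adjustment over all genes tested and a threshold of 0.05. SE and 95% intervals come from the fold change, its F statistic and its degrees of freedom. CPM and RPKM use the TMM-scaled library size and the deposited exon length. TMM factors were 0.837 to 0.884 for knock-down, 1.06 to 1.17 for batch 1 controls, 1.17 to 1.22 for scute and 0.862 to 0.907 for batch 2 controls. The fits were tested on simulated counts that gave every gene the same spread. That test does not measure the error rate of the calls reported here. No replicates agreed within counting noise.

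Named were all 9 members, da, sc and esg, the called genes of each list with the greatest change among those of at least 1 CPM (up to 3 per comparison), and the 3 genes most alike in pattern to each member, among genes of at least 5 CPM in each batch. Replicate numbers were taken to pair samples where same-numbered libraries deviated together. Between control and knock-down the correlations of deviations were 0.295, 0.203 and 0.358, each over 0.1, so these numbers were treated as possibly pairing those libraries. Libraries of unlike number were not compared, so pairing was not established. Between control and UAS-da the correlations were -0.0831 and -0.264, and between UAS-da and knock-down each was -0.222. The main fits, and the p-values given from them, did not use the replicate number. Alternatives were DESeq2 1.42.0, other scalings and filters, a replicate block, halved counts of batch 2, other sets of libraries in a fit, and leaving out each library.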

Additional observations from a re-analysis of the deposited data

How the results depend on the processing

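Of 1752 values of single genes under the alternatives, 1637 kept their direction and side of the threshold, 35 lost a call, 21 gained one and 59 changed sign with no call before or after; no called value changed sign. With UAS-da, the members called fell from 1 to 0 both with the compared groups alone in the fit and with total count scaling. With da:da, they were 2 with the compared groups alone and 3 with total count scaling. For knock-down, 3166 genes were called with total count scaling, against 1947. When 1 library was left out, genes called ranged from 1339 to 2118 for UAS-da (1339 without UAS-da replicate 2, 1379 without control replicate 2; 2185 with all) and from 937 to 2163 for knock-down (937 without control replicate 2, 1095 without control replicate 1). Members called then ranged from 0 to 1 for UAS-da (0 without control replicate 2 or 3 or UAS-da replicate 1), from 2 to 4 for knock-down (2 without control replicate 2), from 1 to 2 for da:da (2 without control replicate 1 or 2 or scute replicate 3) and from 2 to 5 for the da:da minus knock-down difference. Hnf4 in that difference was -0.61 (adjusted p = 0.0444) with DESeq2. The causes were not tested.

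With the replicate number as a block, members called were unchanged in number except for UAS-da against knock-down, with 5 (cad added). Genes called with the block were 2438 for UAS-da, 2031 for knock-down (2676 with knock-down and control alone), 1755 for da:da and 6361 for scute. Among the 9 genes the blocked fit changed no call of knock-down against control, while the number of all genes called went from 1947 to 2031. Counts in amplified RNA are not independent molecules, and depth limited pdm2 most.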

Other observations

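Fatty acid oxidation genes, which include targets of Hnf4 in the fly, were called higher in 5 of 10 after da knock-down and lower in 0 (edgeR: 0 lower at an unadjusted p below 0.05; DESeq2: 0), with sums of 726 to 813 CPM in controls and 1171 to 1207 CPM after knock-down. The carnitine palmitoyltransferase gene whd went from 121 ± 15.3 CPM (SD, n = 3) to 300.1 ± 17.6 CPM there, a log2 change of 1.31 ± 0.15 SE, while the Hnf4 change was 0.15 ± 0.16 and not called. With scute 6 of 10 were lower and 0 higher (0 higher at an unadjusted p below 0.05; DESeq2: 7 lower and 0 higher), with Echs1 at 30.5 ± 4.27 CPM against 116 ± 2.69 CPM in controls (log2 -1.92 ± 0.12), and the sum was 488 to 599 CPM against 795 to 908 CPM. With UAS-da 3 were higher and 1 lower, and with da:da 1 was higher and 2 were lower.

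Antimicrobial peptide genes, a group that cad restrains in the posterior midgut, had few genes with enough counts to test. Of 3 tested in batch 1, 1 was higher with UAS-da and 1 after knock-down. The call with UAS-da was Mtk, at 9.15 ± 6.16 CPM (SD, n = 2). It was at 0.0561 ± 0.0364 CPM in controls and 0.23 ± 0.0316 CPM after knock-down. Mtk passed the filter on low counts only through the UAS-da libraries, so this call was tied to the filter. Of 11 tested in batch 2, 1 was lower with da:da and 1 with scute. Both batch 2 calls were AttD, at 11.7 ± 14.4 CPM (SD, n = 3) in the shared controls, so that the spread of these controls enters both. Its log2 change was -4.85 ± 0.94 SE with da:da, where cad was not called, and -3.61 ± 0.84 with scute, where cad was 2.47-fold higher.

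Haemocyte, trachea and fat body markers were counted as well. In the batch 1 comparisons with controls the 1 call among 3 haemocyte, 3 trachea and 2 fat body markers tested was a trachea marker lower with UAS-da. In batch 2, 1 of 6 haemocyte markers was lower with da:da and 1 with scute, 3 of 6 trachea markers were higher and 2 lower with scute, and 2 of 5 fat body markers were higher with scute. Of all tested genes 22.8% were called higher and 22.2% lower with scute.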
